A study of Solanum lycopersicum with 18 samples.

Results

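The genes described here encode light-harvesting chlorophyll a/b-binding proteins, PsbS and subunits of photosystem I and photosystem II in the nuclear genome of tomato. They were chosen as a list of 38 gene identifiers, matched to the rows of the deposited count table without the version suffix. Of these, 36 had a row among the 35821 genes of the table, and Solyc03g005790 and Solyc05g056070 were not analysed here. All 36 passed the filter on low counts, which kept 15312 genes.

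RNA-seq was made from the fourth leaf of 4-week-old Moneymaker plants grown at 24 °C with 16 h of light, before (0 h) and after 1 h at 45 °C. The genotypes were wild type (WT), with no transgene named in the labels, and 2 transgenic hsfa1a lines in the same background, in which a hairpin RNA is meant to lower HSFA1a, a master regulator of the heat stress response. The labels call the lines line1 and line2 and the columns of the table CS2 and CS3, the names are not paired with each other, and the column names are used here. Each line at each time had 3 libraries, 18 in all, labelled as biological replicates. The labels do not say how many plants entered a library, and nothing is stated on the promoter of the hairpin. The design asks how the transcripts of these genes respond to heat in WT and whether the lines differ from WT.

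Light-harvesting proteins bind chlorophyll a and b in the thylakoid membrane and pass excitation energy to the reaction centres. LHCII surrounds photosystem II and LHCI surrounds photosystem I, and both are built from families of nuclear Lhc genes, called Cab genes in tomato, whose proteins are imported into the chloroplast. PsbS is a related protein that senses the acidity of the thylakoid lumen and switches on the dissipation of excess light as heat. Most reaction centre subunits are encoded in the plastid genome, whereas several small and peripheral subunits, such as PsbQ, PsbR and PsaD, are encoded in the nucleus.

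By gene order, 31 of the 36 genes could be placed on the RefSeq gene table of another tomato assembly (SLM_r2.1), which gave a name to 19 of them. The remaining 12 placed genes have only a locus number there, and 5 genes were not placed. No sequence of the members was in the files used, so none is shown. In the deposited coordinates, which are those of the M82 assembly, the 36 genes lie on 10 chromosomes. The largest cluster holds 7 genes of identical length, 798 bases each, on the plus strand of chromosome 2, from Solyc02g070940 (40129987 to 40130784) to Solyc02g071030 (40151784 to 40152581). It includes Cab-1A (Solyc02g070980), Cab-1D (Solyc02g071000) and Cab-1C (Solyc02g071010), LHCII genes. A second cluster on chromosome 3 holds CAB3A (Solyc03g005760), Solyc03g005770 and Cab-3C (Solyc03g005780), 1875 and 1251 bases apart. Solyc08g067320 and Solyc08g067330, on the minus strand of chromosome 8 (57217689 to 57217964 and 57218021 to 57218317), are only 276 and 297 bases long and lie 56 bases apart.

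Copies with near-identical sequence can share reads, and how alike these copies are in sequence was not examined. How reads with several equal positions were treated can be read from the plastid rows. Of 140 plastid rows with the same coordinates in RefSeq, 30 belong to genes that are present there in 2 copies of the same length, and all 30 had 0 counts in all 18 libraries, against 21 of the 110 other plastid rows. Reads that fit several places equally well were thus not counted there, and how much of each Cab copy could receive reads was not tested.

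The total count of a library lay between 2676951 and 3643803 at 0 h and between 1713285 and 2393059 at 1 h, apart from the third CS2 library at 1 h with 3669618. HSFA2, a heat-induced heat shock factor, was at 4 to 16 counts in the 9 libraries at 0 h and at 650 to 1150 in the 9 libraries at 1 h. HSFA1A itself, identified by gene order, was not lower in the lines. It had 181 to 272 counts in WT before heat, against 192 to 340 in the 6 libraries of the lines. At 1 h it was 0.60 (CS2) and 0.72 (CS3) higher than WT on the log2 scale (edgeR adjusted p = 0.0067 and 0.003). With counts unscaled, which leaves out library size, the values were 0.82 and 0.63 and did not pass (edgeR adjusted p = 0.078 and 0.28). HSFA1A counts averaged only 4.09% of its gene length, far from the limit described below for which that fit was added. Since HSFA1A was not lower, its counts do not check the labels, and CS2 and CS3 below mean the libraries labelled so. The small subunit gene of Rubisco rbcS2, a leaf gene, had 644 to 932 counts in every library, and of the genes fixed as ripe fruit markers polygalacturonase 2a was at 0 in all 18, whereas E8 had 15 to 230 counts. The identity of the tissue was not tested further.

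The counts of these genes were high for their length. The authors removed duplicates from single-end reads, so that reads starting at the same base count once, and a gene cannot hold many more reads than it has bases. Count divided by gene length, called the filled share here, averaged between 5.74% and 99.9% over the members, with a median of 56.8%, whereas the median of the other 15276 genes tested was 3.05%. Of the 36 genes, 33 had a mean filled share of at least 30%, and 429 of all tested genes (2.80%) had. The gene length is the whole span with any introns, so that in a gene with introns the share of the exons can be higher still. Which members have introns was not examined.

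**Figure D1:**
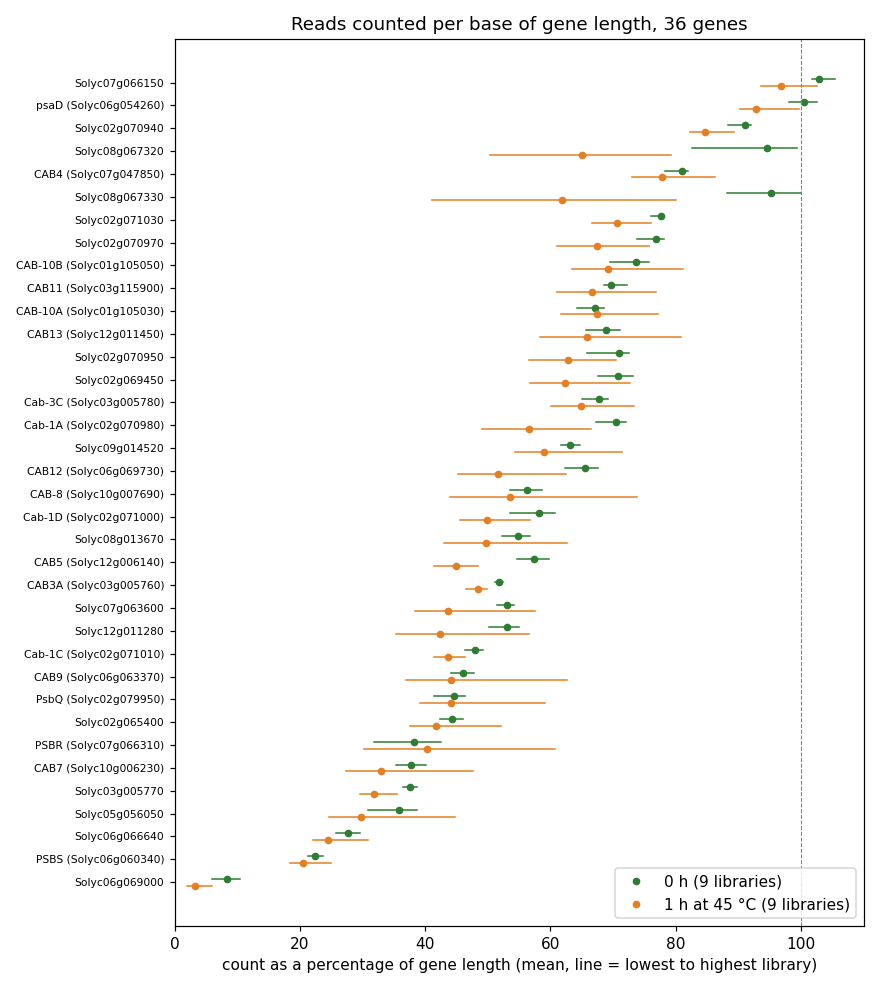
Count as a percentage of gene length for the 36 genes, as the mean (point) and the range (line) over the 9 libraries at 0 h (green) and the 9 at 1 h (orange). Solyc07g066150 and psaD passed 100% in some libraries, and Solyc06g069000 stayed at or below 10.4%.

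The highest filled share was that of Solyc07g066150, 441 bases long, with 449 to 465 counts in the 9 libraries at 0 h and 413 to 452 at 1 h. Reads that overlap the ends of a gene can start outside it, which lets the share pass 100%. psaD (Solyc06g054260), the photosystem I subunit to which ferredoxin docks, was similar, with 615 to 643 counts on 627 bases at 0 h. Among the 7 genes of 798 bases the mean share at 0 h ran from 47.9% for Cab-1C to 91.0% for Solyc02g070940. Each copy kept its own level in the 9 libraries at 0 h: Cab-1C had 370 to 393 counts and Solyc02g070940 had 705 to 735. The lowest share was that of Solyc06g069000 (chromosome 6, 45398235 to 45400594), 8.3% at 0 h. PSBS (Solyc06g060340, chromosome 6, 40948689 to 40951835), the gene of PsbS, was at 22.4%.

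At 0 h the members' counts did not follow the depth of the library. Total counts of the 9 libraries had a coefficient of variation (CV) of 11.2%, and the members' counts a median CV of 2.58%. Of the 36 genes, 32 had a CV under 5%, as had 0.921% of all tested genes. Other genes within the same range of mean counts had a median CV of 15.7%, with a median filled share of 5.86%. The second CS3 library, with a total of 2762831, held 734 reads of Solyc02g070940, and the first CS2 library, with 3643803, held 727. Division by library size turned this evenness into a spread: the CV of CPM values, counts divided by the TMM-adjusted library size, was 12.3% for Solyc02g070940, whose counts had a CV of 1.3%. Cab-1D and CAB-8 were similar, with a CV of 11.2% and 10.8% in CPM and 3.4% and 2.9% in counts. PSBR differed less between the scales, at 9.7% in CPM and 8.0% in counts.

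**Figure D2:**
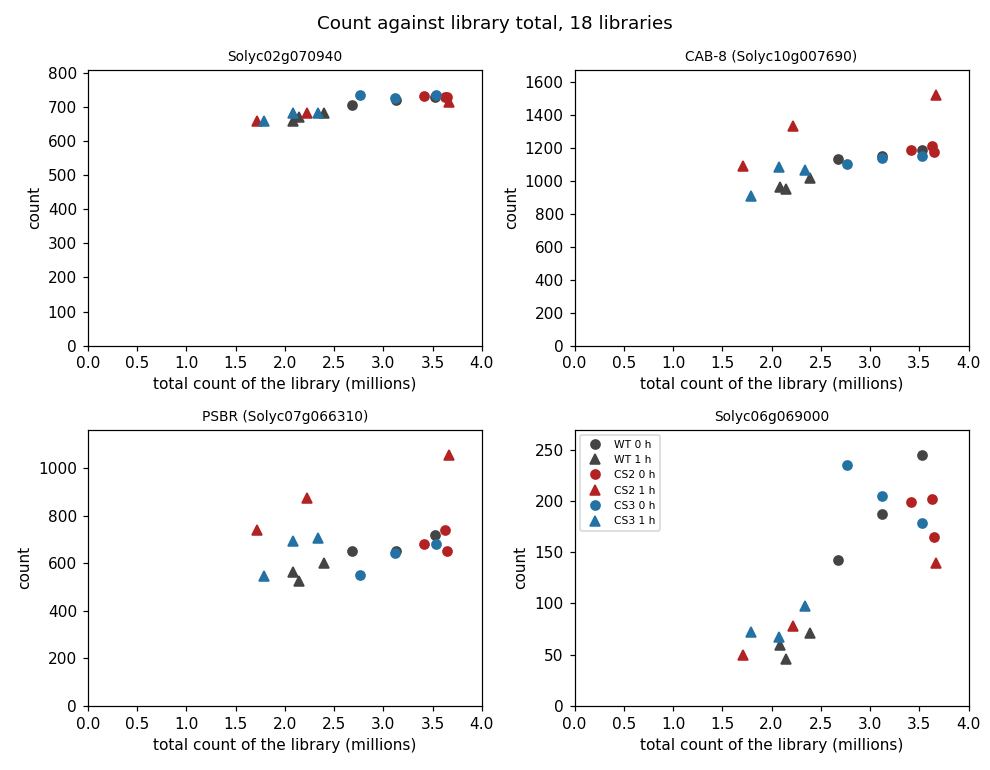
Count of 4 genes (vertical axis) against the total count of each library (horizontal axis), for 18 libraries by genotype (colour) and time (circle 0 h, triangle 1 h). Solyc02g070940 stayed between 657 and 735 over the whole range of totals, whereas Solyc06g069000 ran from 46 to 245.

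For such genes a fold change depends on the scaling. Where each start position counts once, a gene whose transcript does not change can give any ratio of counts between the ratio of the library sizes and 1. Each comparison below is therefore given with TMM scaling, which is the main test (edgeR's quasi-likelihood test, Benjamini-Hochberg adjustment over 15312 genes, threshold 0.05), and with counts left unscaled, a fit added after the data were seen. Between 1 h and 0 h the log2 ratio of the TMM-adjusted library sizes was -0.63 in WT, -0.66 in CS2 and -0.78 in CS3. Higher and lower below refer to the fit named, and a sign that turned between the fits is given with both values.

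In WT, 16 members passed the test as higher after 1 h of heat and 1 as lower with TMM scaling. Of all genes tested, 24.2% passed as higher and 25.2% as lower. The median log2 fold change was 0.39 over the members and 0.00 over all genes. The 3 largest positive values with TMM scaling, -0.08, -0.08 and -0.09 unscaled, were those of CAB-10A (Solyc01g105030, also called Lhcb6, a minor antenna protein of photosystem II) at 0.54 ± 0.18 (SE, adjusted p = 0.018), CAB3A at 0.53 ± 0.20 (adjusted p = 0.034) and Solyc07g066150 at 0.53 ± 0.20 (adjusted p = 0.032). The mean counts behind these values were lower at 1 h. CAB-10A had 947, 936 and 891 counts in the 3 WT libraries at 0 h and 855, 876 and 902 at 1 h, CAB3A had 411, 414 and 412 and then 374, 400 and 395, and Solyc07g066150 had 451, 455 and 455 and then 419, 429 and 433. The counts of CAB3A and Solyc07g066150 at 1 h lay below all those at 0 h, and those of CAB-10A overlapped.

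Over the 36 genes, 35 had all 3 WT counts at 1 h below all 3 at 0 h, as had 60.5% of all genes tested, while 27 had all 3 CPM values above (29.4% of all genes). Unscaled, the log2 fold changes ran from -1.70 to -0.08 with a median of -0.23 (-0.62 over all genes), and 35 of 36 had the opposite sign to the TMM value. No member was higher in both fits (5.37% of all genes were), and 1 was lower in both, Solyc06g069000 (25.2% of all genes). Unscaled, edgeR called 0 members higher (0 at an unadjusted p under 0.05) and 7 lower, against 5.37% and 42.7% of all genes. DESeq2 with its own scaling called 18 members higher and 1 lower, against 3561 and 3765 of the 15312 genes. The 16 calls also rested on single libraries: without the first or the second WT library at 0 h 2 and 0 members passed as higher (22.3% and 21.1% of all genes), and without the first or the second at 1 h 0 and 1 did (20.3% and 20.4%). Scaling by library size only left 2 (17.7%), and this scaling moved the median of all genes by -0.13 in WT and by -0.18 in each line.

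In CS2, 32 members passed as higher after heat and 1 as lower, against 28.7% and 26.2% of all genes, with a median of 0.70 over the members. Without the first CS2 library at 1 h 19 were higher (22.8% of all genes). In CS3 the numbers were again 32 and 1, against 26.7% and 26.5%, with a median of 0.61. Unscaled, the medians were -0.09 in CS2 and -0.16 in CS3 (-0.65 and -0.78 over all genes). No member passed as higher in either line by edgeR (1 in CS2 and 0 in CS3 at an unadjusted p under 0.05) and 4 passed as lower in each, against 5.24% and 44.6% of all genes in CS2 and 4.69% and 53.5% in CS3. Called the same way in both fits were 0 members higher and 1 lower in each line, Solyc06g069000. The share of all genes called in both fits was 5.24% higher and 26.2% lower in CS2, and 4.69% higher and 26.5% lower in CS3. Counts of all 3 libraries at 1 h lay below those at 0 h for 15 members in CS2 (43.2% of all genes) and 33 in CS3 (60.7%).

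**Figure D3:**
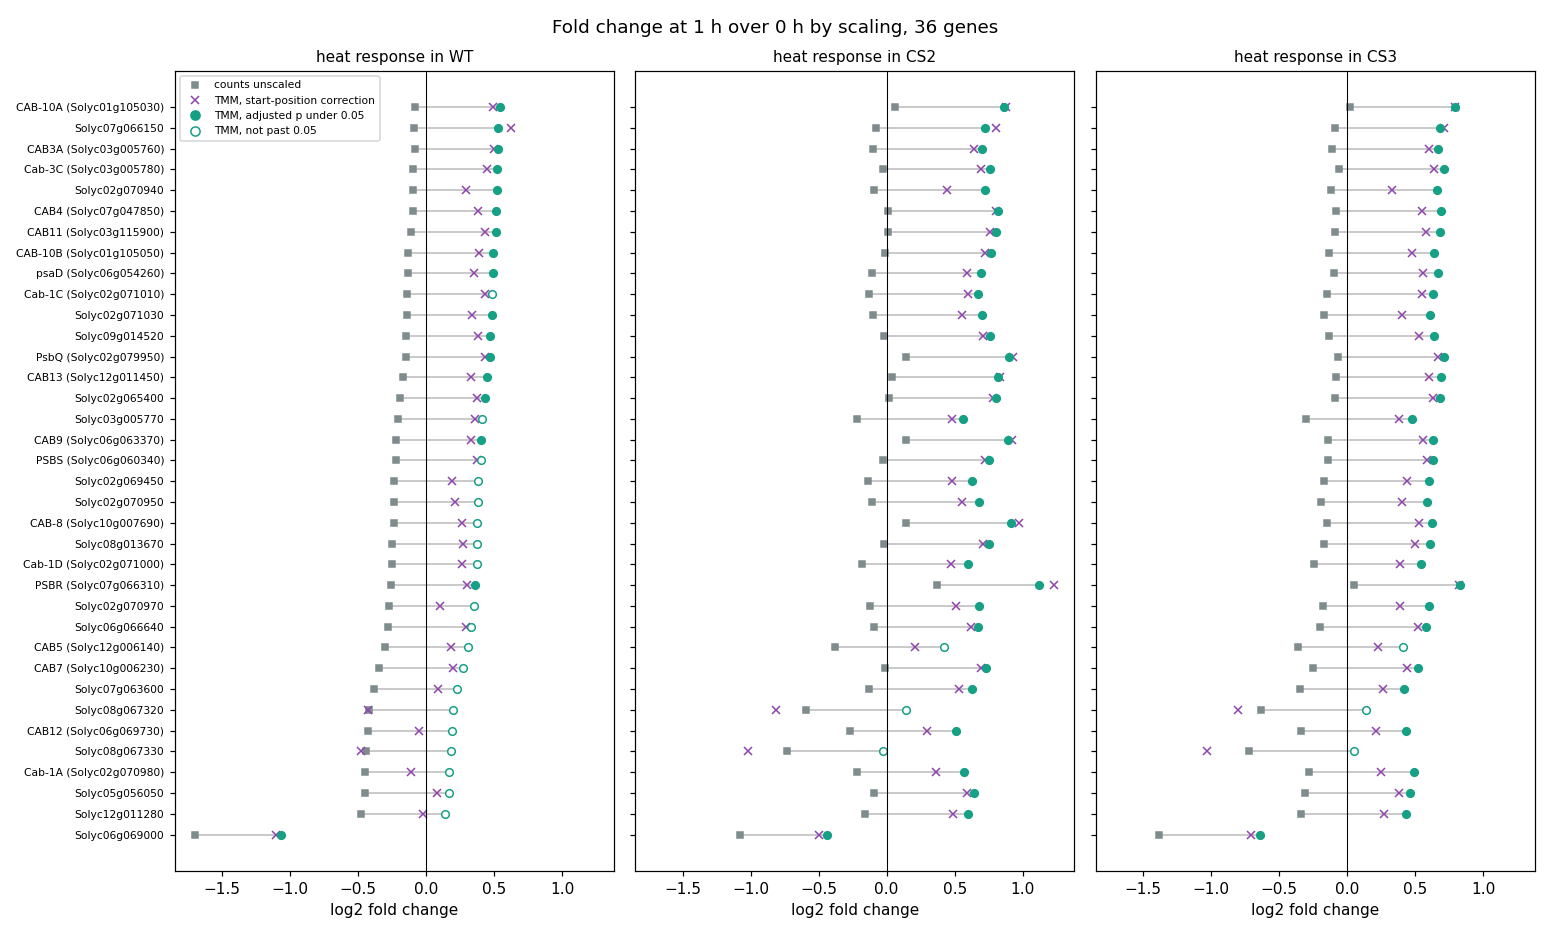
Log2 fold change at 1 h over 0 h of the 36 genes in WT, CS2 and CS3, with counts unscaled (grey squares), with TMM scaling (circles, filled where the adjusted p was under 0.05) and with TMM after the start-position correction (crosses). In WT 35 genes lay below 0 unscaled and above 0 scaled, and Solyc06g069000 lay below 0 in all 3 panels.

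Another fit replaced each count by the number of reads that would fill as many start positions by chance (the start-position correction). It assumes that all bases of the span can receive reads, which copies and introns may not meet. With it 9 members were higher and 3 lower in WT (23.5% and 25.6% of all genes), 30 and 3 in CS2 (26.3% and 28.3%), and 22 and 3 in CS3 (24.2% and 28.4%). The medians were 0.30, 0.61 and 0.49. The filled share was limited to 95% in this fit, which Solyc07g066150 and psaD passed in all 9 libraries at 0 h, so that it says nothing on these 2 genes. Without them 8, 28 and 20 members were higher. Solyc08g067320 and Solyc08g067330 joined Solyc06g069000 as lower in all 3 genotypes.

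The libraries at 1 h can also be set beside the 3 libraries of their own genotype at 0 h without any scaling. In the 3 WT libraries at 1 h, with total counts at 0.671, 0.691 and 0.770 of the 0 h mean, no member had a count above the 0 h libraries, and 36, 36 and 35 were below all of them. Of all genes 9.43%, 10.2% and 12.5% were above and 74.8%, 72.9% and 63.1% below. The median member stood at 0.844, 0.849 and 0.887 of its 0 h mean. In CS3, CAB-10A and PSBR were above all 0 h counts in the first and the third library, at 0.663 and 0.744 of the 0 h total (8.02% and 12.3% of all genes), and no member was in the second (6.41%).

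In the second CS2 library at 1 h, at 0.624 of the 0 h total, 6 members had more reads than any CS2 library at 0 h: CAB13 (an LHCII gene), CAB-10A, CAB-8 (an LHCI gene), CAB9, PsbQ and PSBR. Of all genes 9.05% were above there and 83.2% below, and 24 members were below. A smaller library with more reads of a gene gives the same direction scaled and unscaled. CAB-8 (Solyc10g007690, chromosome 10, 1951812 to 1953876) had 1336 reads there against 1178, 1212 and 1190 at 0 h, and PsbQ (Solyc02g079950), an extrinsic subunit near the oxygen-evolving complex, had 970 against 863, 882 and 871. The first CS2 library at 1 h, at 0.481 of the total, had no member above the 0 h counts and 35 below (5.58% and 90.6% of all genes). All 6 genes were also above the 0 h counts in the third CS2 library, which was deeper.

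The third CS2 library at 1 h had a total of 3669618, close to the 3415113 to 3643803 of the CS2 libraries at 0 h, and allows a comparison at like depth. In it 20 members were above all 3 CS2 libraries at 0 h, 15 below and 1 within their range. Of all genes tested, 37.2% were above and 43.3% below. Among the members the direction went with gene length, split at 1200 bases after the values were seen. All genes were not split by length, so whether this is particular to the members was not tested. Of the 18 members longer than 1200 bases 16 were above and 2 below, with a median ratio of 1.13 to the 0 h mean, and of the 18 shorter members 4 were above and 13 below, with a median of 0.977. PSBR had the highest ratio, 1.53, followed by CAB9 (1.34), PsbQ (1.29), CAB-8 (1.28) and CAB7 (1.22), and CAB9 and CAB7 encode antenna proteins. The 7 genes of 798 bases had ratios of 0.943 to 0.985. The lowest ratios were those of Solyc06g069000 (0.742), Solyc08g067330 (0.790), Solyc08g067320 (0.816) and CAB5 (Solyc12g006140, an LHCII gene, 0.821). This library has no replicate at its depth. Plastid rows took 0.135% of its reads, against 0.419% and 0.323% in the other CS2 libraries at 1 h and 0.152% to 0.184% at 0 h, and their part in these ratios was not tested.

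Solyc06g069000, the least filled member, had a log2 fold change below 0 after heat in every genotype with TMM scaling, unscaled and with the start-position correction. The unscaled fit adds no support, since most libraries at 1 h were smaller. All 3862, 4011 and 4065 genes lower with TMM scaling in WT, CS2 and CS3 were lower unscaled too. The counts of Solyc06g069000 were 187, 245 and 142 in WT at 0 h and 59, 46 and 71 at 1 h. In CS2 they were 165, 202 and 199 and then 50, 78 and 140, and in CS3 179, 235 and 205 and then 67, 72 and 98. The counts at 1 h lay below those at 0 h in each genotype without overlap. Of all genes, 60.5%, 43.2% and 60.7% did so in WT, CS2 and CS3. Mean CPM of Solyc06g069000 fell from 58.1 ± 7.67 to 27.7 ± 4.23 (SD, n = 3) in WT, from 49.8 ± 6.88 to 36.3 ± 3.22 in CS2 and from 63.2 ± 17.1 to 40.4 ± 4.95 in CS3.

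The log2 fold change of Solyc06g069000 was -1.07 ± 0.19 in WT (SE, edgeR adjusted p = 0.00017), -0.44 ± 0.18 for CS2 (adjusted p = 0.05 after rounding, under the threshold) and, for the CS3 libraries, -0.64 ± 0.19 (adjusted p = 0.0077). In CS2 the call is at the threshold: DESeq2 did not make it, and the adjusted p reached 0.14 when 1 library was left out. The exact two-sided permutation test gave p = 0.1 in WT, the smallest that 3 libraries against 3 allow. At 1 h the gene stood at 22.9 to 30.5 CPM in WT, 32.7 to 38.8 in CS2 and 34.7 to 43.7 in CS3, so that all libraries of both lines were above all of WT in CPM, whereas the counts overlapped. The differences did not pass the test, at 0.40 ± 0.20 for CS2 (adjusted p = 0.15) and 0.54 ± 0.20 for CS3 (adjusted p = 0.062), nor did the heat response differ from WT (CS2 by 0.62 ± 0.27, adjusted p = 0.11, CS3 by 0.43 ± 0.27, adjusted p = 0.33). RefSeq gives it no name, and which of the listed protein types it encodes was not taken further.

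Solyc08g067320 and Solyc08g067330 were nearly full at 0 h and lost more than the other full genes. Their mean filled shares were 94.6% and 95.2% at 0 h and 65.0% and 61.8% at 1 h. The other 3 members above 90% at 0 h stayed at 84.7% (Solyc02g070940), 92.8% (psaD) and 96.8% (Solyc07g066150). Solyc08g067330 had 283, 297 and 262 counts in WT at 0 h and 220, 163 and 238 at 1 h, and in CS3 it had 285, 282 and 285 and then 179, 162 and 177.

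With TMM scaling neither gene of this pair passed the test after heat. Solyc08g067330 had log2 fold changes of 0.18 ± 0.14 (adjusted p = 0.31) for WT, -0.03 ± 0.14 (adjusted p = 0.86) for CS2 and 0.05 ± 0.14 (adjusted p = 0.76) for CS3. Unscaled it was lower by edgeR in both lines (-0.73 for CS2, adjusted p = 0.015, and -0.72 for CS3, adjusted p = 0.014) and not in WT (-0.44, adjusted p = 0.13). With the start-position correction the values were -0.48, -1.02 and -1.03 (adjusted p = 0.028, 0.00012 and 0.0001), and those of Solyc08g067320 were -0.43, -0.81 and -0.80 (adjusted p = 0.045, 0.00076 and 0.00083). Each gene was over the limit of that fit in 5 of the 9 libraries at 0 h, so that these sizes depend on the limit. Both were far below their 0 h counts in the CS2 library of like depth, with 212 against 254 to 263 for Solyc08g067320 and 224 against 273 to 296 for Solyc08g067330.

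**Figure D4:**
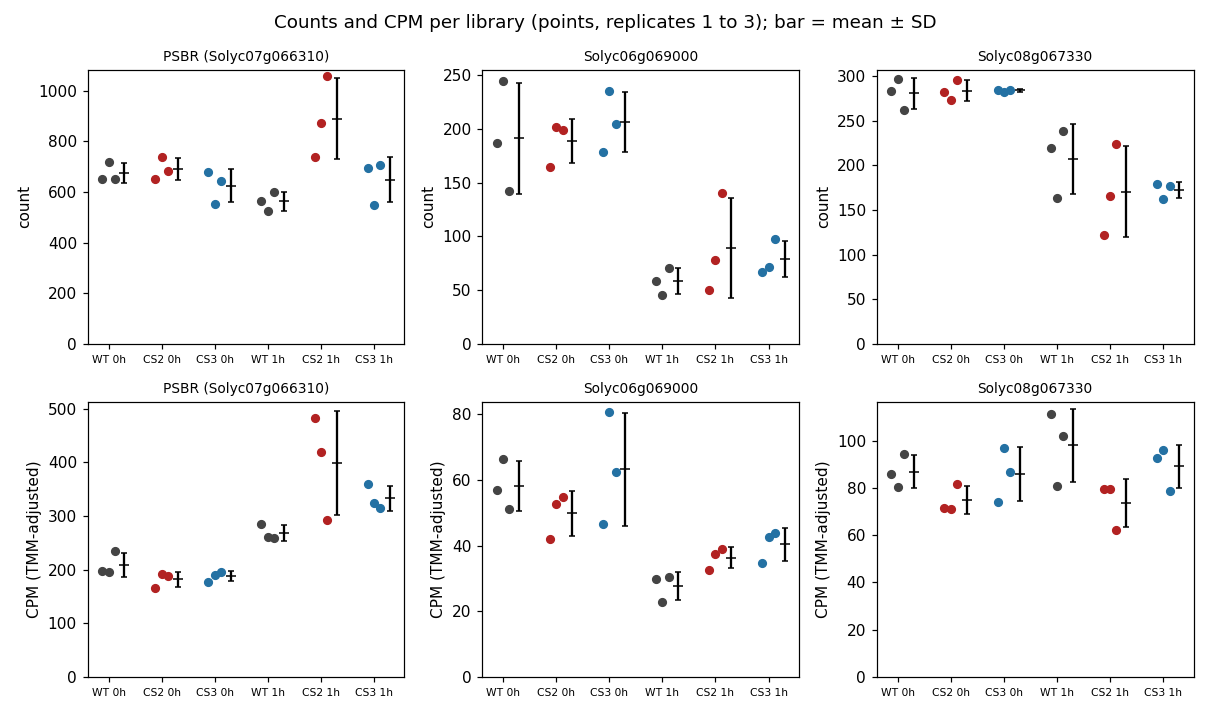
Counts (top) and CPM (bottom) of PSBR, Solyc06g069000 and Solyc08g067330 in each of the 18 libraries, with the mean ± SD of the 3 libraries of a condition at the side. PSBR at 1 h was above WT in all 3 CS2 libraries, and the counts of Solyc08g067330 at 1 h lay below those at 0 h in each genotype, whereas its CPM values overlapped.

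At 1 h, 1 member was higher and 1 lower in CS2 than in WT with TMM scaling, whereas 17.8% of all genes were higher and 15.3% lower. The median was 0.09 over the members. The higher member was PSBR (Solyc07g066310, chromosome 7, 68195878 to 68197614), which encodes PsbR, a small subunit on the lumenal side of photosystem II. It had 564, 525 and 601 counts in WT and 739, 874 and 1056 in CS2, and the smallest CS2 library, with the lowest total of all 18, still held more reads of PSBR than any WT library at 1 h. In CPM it stood at 268 ± 15.1 in WT and 398 ± 96.8 in CS2 (SD, n = 3), with 483, 419 and 293 in the 3 CS2 libraries. All CS2 values were above all WT values on both scales.

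The log2 fold change of PSBR in CS2 against WT was 0.57 ± 0.15 (SE, edgeR adjusted p = 0.0057). It was 0.66 unscaled (adjusted p = 0.01) and 0.74 with the start-position correction (adjusted p = 0.00028), and it passed the test without any 1 of the 6 libraries (0.38 to 0.75, adjusted p = 0.00016 to 0.043). PSBR was the only member called higher both with and without scaling, which 9.59% of all genes were, while 3.22% were called lower in both and no member was. Exact permutation gave p = 0.1, the smallest possible. The lower member was Solyc08g067330, at -0.43 ± 0.15 (adjusted p = 0.031). It had 220, 163 and 238 counts in WT and 122, 166 and 224 in CS2, which overlap, and unscaled it was not called (-0.28, adjusted p = 0.50).

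The comparison of CS2 with WT at 1 h depended on the first and the third CS2 library. On all libraries DESeq2 called 1 member higher and 1 lower, against 2677 and 2245 of the 15312 genes. Without the third CS2 library, 11 members were higher and 0 lower, against 15.2% and 13.9% of all genes, and the median was 0.32. PSBR and CAB-8 were then called higher both with and without scaling, as were 749 of all genes. Without the first CS2 library instead, 1 member was higher and 1 lower and the median was -0.16, with 27 of 36 values below 0. CAB-8 had 963, 952 and 1022 counts in WT and 1094, 1336 and 1525 in CS2 at 1 h, without overlap. Its difference was 0.34 ± 0.16 with TMM scaling (adjusted p = 0.11), 0.43 unscaled (adjusted p = 0.04) and 0.54 corrected (adjusted p = 0.0054).

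CAB9 (Solyc06g063370) and Solyc05g056050 also passed with the correction, at 0.39 (adjusted p = 0.03) and 0.34 (adjusted p = 0.045), so that 4 members were higher under it and 1 lower, against 17% and 16.5% of all genes. Counts of all 3 CS2 libraries were above all of WT for 10 members and below for none, against 12.9% and 4.72% of all genes. TMM-adjusted library sizes of CS2 were 0.19 larger on the log2 scale, and by CPM only 2 members lay wholly above, PSBR and Solyc06g069000, against 25.5% of all genes.

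In CS3 no member differed from WT at 1 h by edgeR (2 higher and 0 lower at an unadjusted p under 0.05) or by DESeq2 (0 and 0), whereas 11.9% of all genes were higher and 12.4% lower. The median of the members was 0.16. PSBR had 694, 547 and 706 counts in CS3, which overlap WT, and 359, 324 and 315 CPM, which lie above it. Its difference of 0.31 ± 0.15 did not pass (adjusted p = 0.13). CS2 and CS3 were compared with the same WT libraries, so that their values are not independent. They were not tested against each other.

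**Figure D5:**
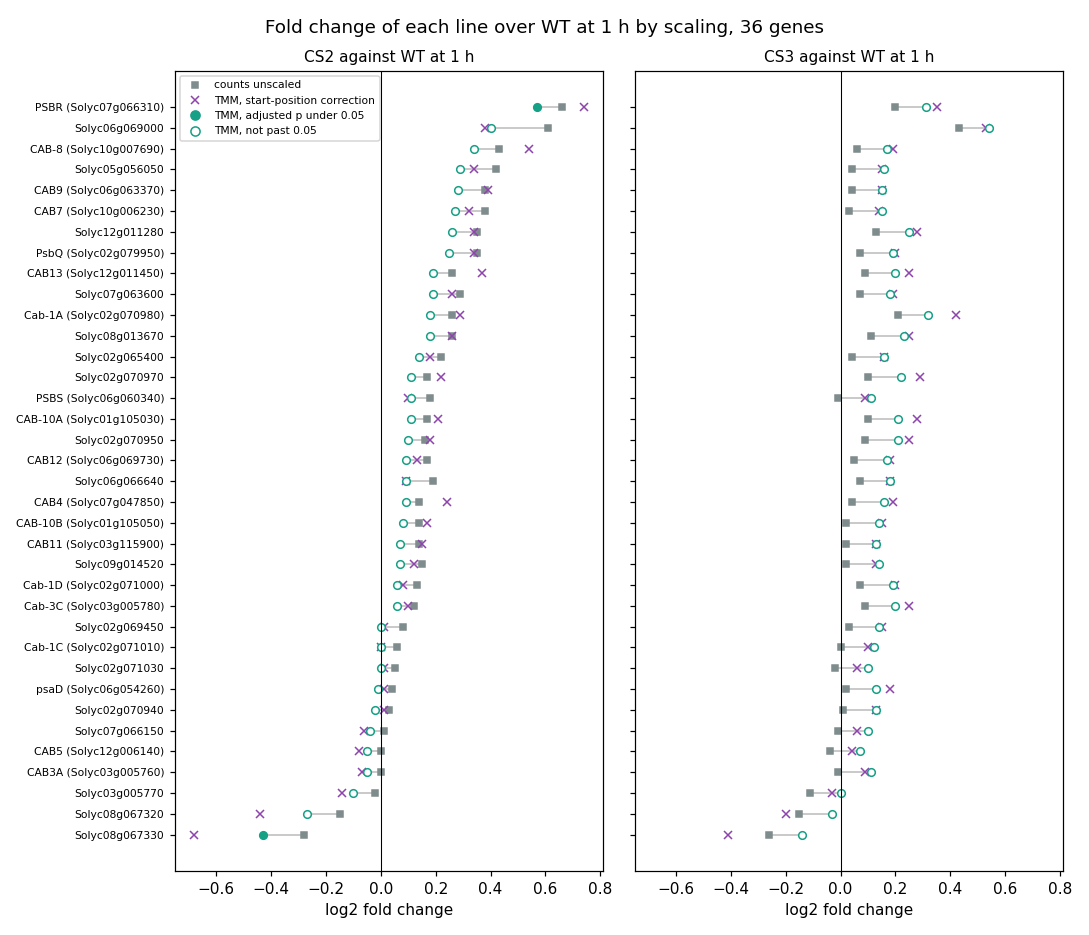
Log2 fold change of CS2 and CS3 over WT at 1 h for the 36 genes, with counts unscaled (grey squares), with TMM scaling (circles, filled where the adjusted p was under 0.05) and with TMM after the start-position correction (crosses). In CS2 PSBR (0.57) and Solyc08g067330 (-0.43) passed the test, and in CS3 none did.

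At 0 h no member differed between CS2 and WT or between CS3 and WT by edgeR (0 at an unadjusted p under 0.05 in both) or by DESeq2 (0 and 0). Few genes of any kind did, 0.0327% higher and 0.0196% lower in CS2 and 0.137% and 0.0914% in CS3. All 36 TMM values in CS2 lay below 0, between -0.26 and -0.16 with a median of -0.21, and for 9 genes all 3 CS2 values were below all of WT in CPM (5.15% of all genes). Unscaled, the range was -0.02 to 0.08 with a median of 0.02. The log2 ratio of the TMM-adjusted library sizes, CS2 over WT, was 0.22. In CS3, where that ratio was 0.04, the medians were -0.04 scaled and 0.00 unscaled.

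The heat response itself was compared with that of WT as an interaction. In CS2 1 member passed as higher and 0 as lower (6 and 0 at an unadjusted p under 0.05, and 1 and 0 by DESeq2), against 10.4% and 9.35% of all genes. This was PSBR again, at 0.76 ± 0.20 (adjusted p = 0.013). PSBR had heat responses of 0.36 ± 0.15 in WT (adjusted p = 0.048), 1.12 ± 0.15 for CS2 (adjusted p = 5e-06) and, for the CS3 libraries, 0.83 ± 0.15 (adjusted p = 0.00014) with TMM scaling, whereas the unscaled values were -0.26, 0.37 and 0.05 (adjusted p = 0.21, 0.077 and 0.79) and did not pass. Unscaled, the interaction of PSBR was 0.62 (adjusted p = 0.20). Without the third CS2 library at 1 h 13 members passed as higher in the interaction and 0 as lower (9.8% and 9.06% of all genes), with a median of 0.54. Without the first, 1 passed and the median was 0.04, against 0.31 with all libraries. In CS3 0 members passed in either direction (1 and 0 at an unadjusted p under 0.05, and 0 by DESeq2), against 4.96% and 5.3% of all genes.

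By role, the 7 genes of the Cab-1 cluster had TMM log2 fold changes of 0.17 to 0.52 with heat in WT, 0.57 to 0.72 in CS2 and 0.49 to 0.66 in CS3. Unscaled, all were below 0, from -0.45 to -0.10, -0.22 to -0.09 and -0.28 to -0.12. The lowest in WT was Cab-1A, with 553, 575 and 536 counts at 0 h and 392, 428 and 395 at 1 h, a larger difference than in Solyc02g070940 (720, 729 and 705, then 658, 669 and 681). Cab-1A was filled to 70.5% at 0 h and Solyc02g070940 to 91.0%. Cab-1C, the least filled copy at 47.9%, had 380, 386 and 370 counts and then 335, 346 and 348, a smaller difference than in Cab-1A. The relation of the difference to the filled share was not tested. The 3 genes of the Cab-3 cluster ranged from 0.41 to 0.53 in WT (-0.21 to -0.08 unscaled), and the 10 other named antenna genes from 0.19 (CAB12) to 0.54 (CAB-10A), or -0.43 to -0.08 unscaled. Against WT at 1 h, the named antenna genes outside the clusters ranged from -0.05 to 0.34 (CS2) and from 0.07 to 0.21 (CS3), and none passed with TMM scaling.

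PSBS had 703, 742 and 721 counts in WT at 0 h and 598, 629 and 632 at 1 h, and its CPM went from 225 ± 31.0 to 296 ± 21.6 (SD, n = 3). The heat response was 0.40 ± 0.18 in WT (adjusted p = 0.071), 0.75 ± 0.18 for CS2 (adjusted p = 0.0017) and, for the CS3 libraries, 0.63 ± 0.18 (adjusted p = 0.0063), and unscaled -0.22, -0.03 and -0.14. Its direction thus depended on the scaling in all 3 genotypes. In CS2 and CS3 it differed from WT at 1 h by 0.11 ± 0.18 each (adjusted p = 0.70). PsbQ had a heat response of 0.47 ± 0.15 in WT (adjusted p = 0.016) and 0.90 ± 0.15 in CS2 (adjusted p = 8.4e-05), and psaD of 0.49 ± 0.19 and 0.69 ± 0.19 (adjusted p = 0.045 and 0.006). Unscaled, PsbQ was at -0.15 and 0.14 and psaD at -0.13 and -0.11.

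Genes of the same complexes in the plastid genome were read for comparison, as a list made after the data were seen. Of 20 psa and psb rows named by RefSeq, 13 passed the filter, filled to 8.19% to 70.1% of their length. With TMM scaling 3 were higher after heat in WT and 0 lower, with a median of 0.59, against 24.2% and 25.2% of all genes. All 13 were higher in CS2 and in CS3 (28.7% and 26.7% of all genes), with medians of 1.46 and 1.38. Called higher in both fits were 0 in WT, 2 in CS2 and 3 in CS3, against 5.37%, 5.24% and 4.69% of all genes. psbD, which encodes the D2 reaction centre protein, had 161, 229 and 86 counts in WT at 0 h and 220, 251 and 210 at 1 h. These genes varied widely between libraries of a condition: psaA, a photosystem I reaction centre gene, had 199, 664 and 233 counts in CS3 at 0 h. All plastid rows together took only 0.135% to 0.429% of the reads of a library, and psbA had 60 to 103 counts. The values thus describe a small part of the reads that varied between libraries. Against WT at 1 h none of the 13 passed in either line by edgeR. Of all genes, 17.8% were higher and 15.3% lower in CS2, and 11.9% and 12.4% in CS3.

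Of 8 other nuclear genes of photosynthesis and chlorophyll metabolism placed by name, 3 were higher after heat in WT and 5 in each line with TMM scaling. Of all genes, 24.2%, 28.7% and 26.7% were higher in WT, CS2 and CS3. None of the 8 was lower, and their medians were 0.30, 0.68 and 0.56. PETE, the gene of plastocyanin, was like the fullest members, with 551 to 568 counts on 513 bases at 0 h and 527 to 558 at 1 h. ELIP, the gene of an early light-induced protein related to the antenna proteins, was the only one of the 8 called higher with heat in both fits. Of all genes, 5.37%, 5.24% and 4.69% were so called in WT, CS2 and CS3. It had 95, 118 and 111 counts in WT at 0 h and 335, 410 and 351 at 1 h, at log2 fold changes of 2.38, 2.18 and 3.07 for WT, CS2 and CS3 (adjusted p = 4.3e-07, 1.7e-06 and 2.3e-08). At 1 h it was lower in CS2 than in WT, by -0.63 (adjusted p = 0.046), a call lost unscaled (-0.56, adjusted p = 0.13), and in CS3 the difference was 0.41 (adjusted p = 0.20).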

How the data were processed

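The authors deposited 1 table of raw read counts per gene, whole numbers that are not normalized, for 18 libraries of single-end 75-base reads from a strand-specific kit. The submitters' processing notes name Trimmomatic 0.38, Bowtie2 2.3.5, SAMtools 1.9 and featureCounts, and the column names bowtie, whereas the methods of the study name STAR. Per the file headers, alignments had a mapping quality of at least 30, PCR duplicates were removed, reads were counted on the reverse strand, also in overlapping genes, and the length is the whole gene span. These steps cap the counts of strongly transcribed genes. Total counts were 1713285 to 3669618, and small changes of low genes are not detectable at this depth.

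A minimum of 50 counts in 2 or more libraries was required of a gene, and the tests were made in edgeR 4.0.16 (quasi-likelihood, TMM, 6 conditions, R 4.3.3). DESeq2 1.42.0, other scalings and filters, a replicate block, a correction for start positions counted once (share limited to 0.95) and leaving out each library were alternatives. The test was tested on simulated data. Single genes were compared by exact permutation on log2 (CPM + 0.5). Members and lists were chosen with earlier results of these data known. Named in full by rule were the 3 largest called changes each way in the heat response in WT and in either line against WT at 1 h, the fullest and the emptiest member, PSBS and adjacent copies of opposite direction. Other genes named were chosen after their values were seen. Lists by product name could not be built, since the RefSeq table used has symbols only, and symbols were used instead. Replicates are biological by label, and p-values measure the spread between these libraries.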

Additional observations from a re-analysis of the deposited data

Results flagged for a closer look

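PSBR (Solyc07g066310) stood out because its heat response differed between genotypes by a test of the difference itself: the response in CS2 exceeded that in WT by 0.76 ± 0.20 on the log2 scale (edgeR adjusted p = 0.013). Unscaled this difference was 0.62 (adjusted p = 0.20), and in CS3 it was 0.47 with TMM scaling (adjusted p = 0.16). At 1 h PSBR was higher in 3 of 3 CS2 libraries than in any WT library, as were 12.9% of all genes in counts and 25.5% in CPM. At 0 h PSBR in CS2 was at -0.20 against WT with TMM scaling, near the median of -0.21 over the members, which was 0.02 unscaled. No member was flagged for a library far from the other 5, in 2 groups of 6 hsfa1a libraries that pooled CS2 and CS3. Single libraries could still stand apart in counts. At 0 h PsbQ had 788 in the second CS3 library and 847 to 882 in the other 5. CAB11 had 985 in the second CS2 library and 934 to 953 in the other 5. Calls also depended on single libraries: without the third CS2 library at 1 h, 11 members were higher than WT, against 1 with all libraries.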

How the results depend on the processing

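In WT, 16 members were higher after heat with all libraries. The number was 2 with scaling by library size, 2 with upper quartile scaling and 9 with the start-position correction. It was 25 with only the conditions compared and 0 unscaled. Of the 15312 genes, 2715, 2872, 3600, 3546 and 823 were higher in these fits, in that order. Without 1 library, 0 to 18 members were higher, against 3106 to 3421 of all genes. The number of members lower, 1, became 3 corrected and 7 unscaled (3914 and 6537 of all genes). In CS2 the number higher was 0 unscaled and 19 to 33 without 1 library (803 and 3485 to 4152 of all genes). The number lower was 3 corrected, 4 unscaled, 0 by DESeq2 and 0 to 1 without 1 library (4339, 6824, 3910 and 3272 to 3783 of all genes). In CS3 the number higher was 0 unscaled and 22 to 32 without 1 library (718 and 3465 to 4108 of all genes). There the number lower was 3 corrected and 4 unscaled (4349 and 8194 of all genes). Between CS2 and WT at 1 h the number higher was 4 corrected, 2 unscaled and 1 to 11 without 1 library (2598, 1480 and 2039 to 2348 of all genes). The number lower was 0 unscaled and 0 to 1 without 1 library (493 and 1738 to 2180 of all genes). Between CS3 and WT at 1 h 1 member was higher under upper quartile scaling, the replicate block and only the conditions compared (2096, 1856 and 2090 of all genes). In the CS2 interaction the number higher was 3 corrected, 0 unscaled and 1 to 13 without 1 library (1502, 167 and 1111 to 1542 of all genes). Without the third CS2 library at 1 h, 0 members were lower with heat in CS2 and 2 higher than WT both with and without scaling (3783 and 749 of all genes).

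Signs turned when counts were left unscaled. In WT the log2 fold change became -0.08 for Solyc01g105030, -0.10 for Solyc02g070940, -0.15 for Solyc02g079950, -0.08 for Solyc03g005760, -0.13 for Solyc06g054260, -0.22 for Solyc06g063370, -0.09 for Solyc07g066150 and -0.26 for Solyc07g066310. In CS2 it became -0.09 for Solyc02g070940, -0.10 for Solyc03g005760, -0.11 for Solyc06g054260, -0.03 for Solyc06g060340, -0.08 for Solyc07g066150, -0.59 for Solyc08g067320 and -0.38 for Solyc12g006140. In CS3 it became -0.12 for Solyc02g070940, -0.07 for Solyc02g079950, -0.11 for Solyc03g005760, -0.10 for Solyc06g054260, -0.14 for Solyc06g060340, -0.14 for Solyc06g063370, -0.09 for Solyc07g066150, -0.63 for Solyc08g067320, -0.72 for Solyc08g067330, -0.15 for Solyc10g007690 and -0.36 for Solyc12g006140. The start-position correction turned Solyc08g067320 to -0.43, -0.81 and -0.80 in WT, CS2 and CS3, and Solyc08g067330 to -0.48 in WT and -1.03 in CS3.

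The libraries share only a replicate number: of 45 same-numbered pairs, 13 had a correlation of deviations over 0.1 (-0.4 to 0.41). With the replicate block 12 members were higher in WT, 32 in CS2 and 31 in CS3, and 1 was lower in each. Of all 15312 genes, 3662, 4369 and 4059 were higher in that fit, and 3866, 4042 and 4043 were lower.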
